A study of Homo sapiens with 4 samples.

Results

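Wnt target genes and feedback regulators were followed here as a list of 10 genes chosen by name: AXIN2, LGR5, NKD1, GLUL, TBX3, RNF43, ZNRF3, SP5, NOTUM and TNFRSF19. All 10 were found by symbol among the 59652 genes of the count table. RNA was sequenced from Huh7 and PLC cells, a pair of human hepatocellular carcinoma (HCC) lines labelled wild type. The study looked for long non-coding RNAs (lncRNAs) that follow the glucose supply. The cells grew for 48 h in DMEM that was free of glucose and contained serum, to which 5 mM glucose (low) or 25 mM glucose (high) was added. Each line at each concentration gave 1 library of total RNA depleted of rRNA, so 4 libraries stand behind every value and no condition has a replicate. Every interval below is a 95% interval that covers the counting of reads alone, and the interval of a ratio speaks of 2 libraries and not of the conditions behind them.

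Wnt ligands bind Frizzled receptors and their LRP coreceptors at the cell surface, and this keeps beta-catenin from being degraded by a complex built on AXIN and APC proteins. Beta-catenin then enters the nucleus and switches on genes together with TCF and LEF factors, and several of these genes act back on the pathway as brakes. In the liver the pathway is known for the identity of hepatocytes around the central vein, where GLUL is the classic marker, and HCC with activated beta-catenin often has high GLUL, LGR5 and TBX3.

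The libraries held between 16049686 and 30279716 reads counted on genes, the fewest in PLC at 25 mM, and 3 reads stood for 0.0991 to 0.187 CPM, reads scaled to the library total. Levels are given as reads and as FPKM, calculated from the reads, the length of the gene in the table and the library total. In Huh7 all 11 hepatocyte markers had an FPKM over 0.5, with a summed level of 5243 to 5448, and in PLC 10 of 11 did, with a sum of 772 at 5 mM and 1661 at 25 mM. Alpha-fetoprotein (AFP) was at 306 and 1011 FPKM in these PLC libraries, and HNF4A, a master regulator of hepatocytes, went against the sum at 29 and 31.1 FPKM in Huh7 and 35 and 38.5 in PLC. Transthyretin (TTR) was the exception in PLC, with 4 reads at 5 mM and 0 at 25 mM. Of 5 leukocyte, 5 endothelial and 5 stellate cell markers, 2, 1 and 0 had an FPKM over 0.5 in Huh7 and 2, 0 and 0 in PLC, and the defining markers PTPRC and CDH5 had at most 5 and 2 reads. The markers over 0.5 FPKM were LYZ, at 33.2 and 35 FPKM in Huh7 and 3.54 and 10.8 in PLC, CD14, at 4.2 and 4.84 and at 0.681 and 2.95, and PECAM1 in Huh7, at 2.37 and 2.55. Of 4 cholangiocyte markers, 3 in Huh7 and 1 in PLC had an FPKM over 0.5.

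The 10 genes split between the lines. GLUL, TBX3, SP5, NOTUM and TNFRSF19 were higher in Huh7, LGR5 and RNF43 were higher in PLC, and AXIN2, NKD1 and ZNRF3 did not pass the test. The calls of TBX3 and NOTUM did not hold under every alternative model, and NOTUM stayed under 0.5 FPKM in every library. The largest ratio between libraries that both had reads was that of GLUL, at 29.9 and 27.3 FPKM in Huh7 and 0.0627 and 0.0394 FPKM in PLC, while LGR5 was 7.9-fold higher in PLC at 5 mM and 6.75-fold higher at 25 mM. No gene of the list passed the test for a change with glucose shared by both lines. An FPKM over 0.5 was reached by 7 and 6 of the 10 in Huh7 at 5 mM and 25 mM and by 4 and 5 in PLC, beside 32.6% to 34% of all genes in the table. That share is not like for like, since the table also holds pseudogenes and non-coding genes and all 10 genes code for proteins.

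Huh7 and PLC were set against each other in all 4 libraries by the quasi-likelihood test of edgeR, with glucose as another term in the model, over 23217 genes with Benjamini-Hochberg adjustment. The fit has 1 residual degree of freedom for each gene. To this edgeR adds spread pooled over genes, worth 12 degrees of freedom at the median. No library is a replicate culture of another. The p-values set a difference only against what line and glucose leave unexplained, mostly in other genes. Of the 23217 genes, 21.8% were called higher in Huh7 and 21.1% higher in PLC at an adjusted p under 0.05. Of the 10 genes, 5 were called higher in Huh7 and 2 higher in PLC, and their median log2 difference was 0.39, beside 0.03 over all genes tested.

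Among the genes that carry out or relay the pathway's effects, GLUL encodes glutamine synthetase, the enzyme that joins ammonia to glutamate. GLUL (chromosome 1, 182378098 to 182392206, minus strand of GRCh38, 7 exons in its main transcript) had 8082 and 10386 reads in Huh7 at 5 mM and 25 mM, and 24 and 8 reads in PLC. These are levels of 29.9, 27.3, 0.0627 and 0.0394 FPKM. Both Huh7 libraries were far above both PLC libraries, by 477-fold at 5 mM (interval 320 to 745) and by 693-fold at 25 mM (351 to 1605). The log2 difference was 9.07 (standard error 0.33, adjusted p = 1.62e-09 by edgeR's quasi-likelihood test with Benjamini-Hochberg adjustment). The summed hepatocyte markers were also lower in PLC, although HNF4A was not, and their part in this and the other differences between the lines was not tested. In such bulk RNA, fewer cells that express a gene and less of its RNA per cell cannot be told apart. The 4 GLUL pseudogenes in the table, GLULP3, GLULP4, GLULP5 and GLULP6, had 0 reads in every library except for 2 reads of GLULP4 in PLC at 5 mM.

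TBX3, a T-box transcription factor (chromosome 12, 114670255 to 114684175, minus strand, 7 exons), had 1125 and 1875 reads in Huh7 and 1237 and 222 reads in PLC, or 8.83, 10.5, 6.85 and 2.32 FPKM. The PLC library at 25 mM stood below the other 3, which lay between 6.85 and 10.5 FPKM. The Huh7 level was 1.29-fold higher than that of PLC at 5 mM (1.19 to 1.4) and 4.51-fold higher at 25 mM (3.92 to 5.2). The log2 difference over both concentrations was 1.24 (standard error 0.37, adjusted p = 0.016 by the same edgeR test), and the adjusted p was 0.15 without the glucose term, the highest of 0.000127 to 0.15 over the alternatives. TBX3 shares 196 of its 5960 exon bases, 3.29%, with AC026765.3 on the opposite strand, which had between 5 and 17 reads.

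SP5, a zinc finger transcription factor of the SP family that is switched on by beta-catenin, lies on chromosome 2 from 170715337 to 170718078 on the plus strand and has 2 exons. It had 87 and 73 reads in Huh7 and 0 and 5 reads in PLC, or 1.96, 1.17, 0 and 0.15 FPKM. The Huh7 libraries did not overlap with the PLC libraries. SP5 was at least 41.1-fold higher in Huh7 at 5 mM, counted against 3 reads (32.7 at the lower limit of the counting interval), and 7.79-fold higher at 25 mM (3.19 to 24.7), with an adjusted p of 0.00102 by edgeR's quasi-likelihood test. TNFRSF19, also called TROY, is a receptor of the TNF receptor superfamily (chromosome 13, 23570370 to 23676104, plus strand, 10 exons). It had 225 and 255 reads in Huh7, 2.06 and 1.66 FPKM, and 0 reads in both PLC libraries. TNFRSF19 was at least 106-fold higher in Huh7 at 5 mM and at least 45.3-fold higher at 25 mM, each counted against 3 reads in the PLC library (85.7 and 36.6 at the lower limits), with an adjusted p of 9.4e-07 by edgeR's quasi-likelihood test.

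The promoters of SP5 and TNFRSF19 are shown because both genes were at 5 reads or fewer in PLC, and because they differ in the letters that TCF and LEF factors are known to bind. Both strands of the 250 bases before a transcript's start and the 50 bases from it on were searched for CTTTGA and its reverse complement TCAAAG, and for the longer CTTTGAT and ATCAAAG that contain them. The RefSeq promoter table for GRCh38.p14 had 7 such windows for 4 of the 10 genes, GLUL, SP5, TNFRSF19 and RNF43. SP5 is printed as chr2:170715087-170715336 on the plus strand, and TNFRSF19 as chr13:23570162-23570411 and chr13:23579110-23579359 on the plus strand for 2 of its starts, each as the 250 bases before the start. Capitals mark CTTTGA and TCAAAG.
SP5: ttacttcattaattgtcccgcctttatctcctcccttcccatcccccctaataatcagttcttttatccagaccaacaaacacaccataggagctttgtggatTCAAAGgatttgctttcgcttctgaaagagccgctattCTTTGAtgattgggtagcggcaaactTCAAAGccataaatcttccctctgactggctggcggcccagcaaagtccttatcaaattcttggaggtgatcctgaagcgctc
TNFRSF19 upstream start: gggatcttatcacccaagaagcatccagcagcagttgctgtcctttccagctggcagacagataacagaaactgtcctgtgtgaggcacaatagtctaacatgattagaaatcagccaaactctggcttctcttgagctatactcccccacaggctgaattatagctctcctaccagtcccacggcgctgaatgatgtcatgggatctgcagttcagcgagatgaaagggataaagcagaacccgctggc
TNFRSF19 downstream start: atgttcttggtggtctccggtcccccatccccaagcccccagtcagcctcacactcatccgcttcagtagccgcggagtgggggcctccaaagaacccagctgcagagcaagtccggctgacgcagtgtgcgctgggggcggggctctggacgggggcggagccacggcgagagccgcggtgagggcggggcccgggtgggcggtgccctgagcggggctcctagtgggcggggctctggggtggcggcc
The SP5 window held 3 matches, TCAAAG from 147 to 142 and from 83 to 78 bases before the start and CTTTGA, as part of CTTTGAT, from 109 to 104 bases before it. The other 6 windows, of TNFRSF19, GLUL and RNF43, held none. Of 35116 windows of the same length in the table, 12.9% had at least 1 match, 35 windows (0.0997%) had at least 3, and 2.62% had CTTTGAT or ATCAAAG. A match describes the letters of the window and is not a measured binding site. AXIN2, LGR5, NKD1, TBX3, ZNRF3 and NOTUM were not in the table.

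At the cell surface, LGR5 is a receptor for R-spondins, secreted proteins that strengthen Wnt signals, and marks stem cells in several tissues. LGR5 (chromosome 12, 71439798 to 71586310, plus strand, 18 exons) had 181 and 393 reads in Huh7 and 2026 and 1416 reads in PLC, or 1.62, 2.5, 12.8 and 16.9 FPKM. Both PLC libraries were above both Huh7 libraries, opposite to GLUL. The PLC level was 7.9-fold higher at 5 mM (6.78 to 9.25) and 6.75-fold higher at 25 mM (6.04 to 7.57). The log2 difference, Huh7 minus PLC, was -2.87 (standard error 0.26, adjusted p = 1.55e-06 by edgeR's quasi-likelihood test). TSPAN8 lies across LGR5 on the opposite strand without shared exon bases, and had 101, 170, 524 and 1007 reads in the same order of libraries. AC078860.3 on the opposite strand shares 208 exon bases with LGR5, 3.98% of its length, and had at most 9 reads.

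RNF43 and ZNRF3 are membrane E3 ubiquitin ligases that remove Frizzled receptors from the cell surface, and R-spondins act by way of LGR receptors to take them out of action. RNF43 (chromosome 17, 58353676 to 58417595, minus strand, 10 exons) had 71 and 68 reads in Huh7 and 315 and 127 reads in PLC, or 0.525, 0.357, 1.64 and 1.25 FPKM. The PLC libraries were above the Huh7 libraries, by 3.13-fold at 5 mM (2.41 to 4.11) and 3.5-fold at 25 mM (2.59 to 4.77). The log2 difference, Huh7 minus PLC, was -1.73 (standard error 0.36, adjusted p = 0.0017 by edgeR's quasi-likelihood test). The level of RNF43 is uncertain, because 4326 of its 6329 exon bases, 68.4%, are shared on the same strand with AC004687.2, to which 1 to 5 reads were assigned. How reads in shared exons were treated is not given in the sources used here. TSPOAP1-AS1 shares another 345 bases on the opposite strand and had between 16 and 39 reads.

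ZNRF3 (chromosome 22, 28883572 to 29057488, plus strand, 9 exons) had 1426 and 2174 reads in Huh7 and 2650 and 1666 reads in PLC, or 9.54, 10.3, 12.5 and 14.9 FPKM. ZNRF3 was the most even of the 10 genes across the libraries, and its level was above that of RNF43 in all 4. The PLC level was 1.31-fold higher at 5 mM (1.23 to 1.4) and 1.44-fold higher at 25 mM (1.35 to 1.53), outside counting error but not past the test, with a log2 difference of -0.46 (standard error 0.22, adjusted p = 0.114 by edgeR's quasi-likelihood test). ZNRF3-IT1 on the same strand and ZNRF3-AS1 on the opposite strand share no exon bases with it and had 15 to 43 and 43 to 78 reads.

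NOTUM is a secreted enzyme that inactivates Wnt ligands by removing their lipid. NOTUM (chromosome 17, 81952507 to 81961840, minus strand, 11 exons) had 10 and 26 reads in Huh7, 0.161 and 0.297 FPKM, and 0 reads in both PLC libraries. The Huh7 level was at least 4.72-fold higher at 5 mM and at least 4.62-fold higher at 25 mM, counted against 3 reads (3.18 and 3.5 at the lower limits), with an adjusted p of 0.0085 by edgeR's quasi-likelihood test and of 0.113 by DESeq2, in a range of 0.000215 to 0.113 over the alternatives. The level stayed under 0.5 FPKM in every library.

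Inside the cell, AXIN2 is a scaffold of the beta-catenin destruction complex and the most widely used readout of the pathway. AXIN2 (chromosome 17, 65528563 to 65561648, minus strand, 11 exons) had 41 and 74 reads in Huh7 and 70 and 90 reads in PLC, or 0.367, 0.471, 0.442 and 1.07 FPKM. The library of PLC at 25 mM was the highest, and the other 3 overlapped in their counting intervals. The PLC level was 1.21-fold higher at 5 mM (0.808 to 1.82) and 2.28-fold higher at 25 mM (1.66 to 3.14), and the log2 difference was -0.75 (standard error 0.44, adjusted p = 0.19 by edgeR's quasi-likelihood test). AXIN2 shares 1316 of 5227 exon bases, 25.2%, with AC004805.1 on the same strand, which had at most 3 reads. NKD1, a protein that binds Dishevelled and dampens the signal (chromosome 16, 50548396 to 50649249, plus strand, 10 exons), had 14 and 12 reads in Huh7 and 32 and 30 in PLC, or 0.0377, 0.023, 0.0609 and 0.108 FPKM. NKD1 was the lowest of the 10 genes in both Huh7 libraries. Its log2 difference was -1.45 (standard error 0.69, adjusted p = 0.109 by edgeR's quasi-likelihood test).

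Ordered by FPKM, GLUL came first in both Huh7 libraries and LGR5 in both PLC libraries. In Huh7 at 5 mM the order was GLUL, ZNRF3, TBX3, TNFRSF19, SP5, LGR5, RNF43, AXIN2, NOTUM and NKD1. At 25 mM, TBX3 and ZNRF3 changed places, LGR5 stood above TNFRSF19 and SP5, and AXIN2 above RNF43. Neighbours with overlapping counting intervals were ZNRF3 and TBX3, TNFRSF19 and SP5, and RNF43 and AXIN2 in both libraries, with SP5 and LGR5 and AXIN2 and NOTUM at 5 mM and RNF43 and NOTUM at 25 mM. In PLC, LGR5, ZNRF3, TBX3, RNF43 and AXIN2 followed each other at both concentrations. LGR5 and ZNRF3 overlapped at 5 mM, RNF43 and AXIN2 overlapped at 25 mM, and GLUL, NKD1, SP5, NOTUM and TNFRSF19 all lay below AXIN2. With the length of the MANE Select transcript in place of the table's length the order changed in Huh7 at 5 mM and in no other library, and GLUL rose to 50.1 and 45.7 FPKM in Huh7.

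Glucose was compared within each line as the ratio of the 25 mM to the 5 mM library. The study's thresholds are an FPKM over 0.5, applied here to at least 1 of the 2 libraries, and a ratio over 1.5 or under 0.67, taken here with 0.1 added to both FPKM values. In Huh7, 7 of the 10 genes passed the FPKM filter, and LGR5 was past the thresholds upward and SP5 downward. All genes over the filter were past them in 14.1% upward and 13.7% downward. In PLC, 5 passed the filter, and AXIN2 was past the thresholds upward and TBX3 downward, beside 26.2% of all genes upward and 17.0% downward. The sum of the hepatocyte markers also differed between these PLC libraries, 772 FPKM at 5 mM and 1661 at 25 mM, and its part in the PLC ratios was not tested. With 1 library a condition none of these differences has a replicate check, and no gene of the list was past the thresholds in both lines.

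LGR5 went from 1.62 to 2.5 FPKM in Huh7, a ratio of 1.54 (interval 1.29 to 1.85), or 1.51 with 0.1 added, close to the threshold. In PLC it went from 12.8 to 16.9 FPKM, a ratio of 1.32 (1.23 to 1.41), so both lines were higher at 25 mM. Scaling the libraries by edgeR's TMM method gave 1.47 in Huh7, under the threshold, and 1.21 in PLC. TMM moved log2 ratios by -0.039 in Huh7 and -0.121 in PLC for every gene. By library totals, the median log2 ratio was 0.04 and 0.11. These medians cover all genes over the FPKM filter, with 0.1 added to both FPKM values.

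AXIN2 was 2.43-fold higher at 25 mM in PLC (1.76 to 3.36) and 1.28-fold higher in Huh7 (0.864 to 1.93), where the interval holds 1. ZNRF3 was higher in both lines by a small margin, with ratios of 1.08 in Huh7 (1.01 to 1.16) and 1.19 in PLC (1.11 to 1.26), and TMM scaling gave 1.05 and 1.09. RNF43 was lower in both, at 0.68 (0.481 to 0.963) and 0.761 (0.614 to 0.938). Neither gene was past the thresholds in either line, and the glucose term of edgeR gave log2 changes of 0.10 (standard error 0.22) for ZNRF3 and -0.55 (standard error 0.35) for RNF43.

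TBX3 was lower at 25 mM in PLC, from 6.85 to 2.32 FPKM, a ratio of 0.339 (0.292 to 0.391), and slightly higher in Huh7, from 8.83 to 10.5 FPKM, a ratio of 1.18 (1.1 to 1.28). TBX3 was the gene of the list whose intervals lay on opposite sides of 1 in the 2 lines with more than 3 reads in all 4 libraries. Whether the lines differ in this was not tested, since such a term leaves no residual degree of freedom. SP5 was lower at 25 mM in Huh7, with a ratio of 0.596 (0.431 to 0.823), and in PLC it went from 0 to 5 reads, with a lower counting limit of 1.73 for the ratio.

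GLUL and TNFRSF19 were slightly lower at 25 mM in Huh7, with ratios of 0.913 (0.887 to 0.94) and 0.805 (0.67 to 0.968). In PLC, GLUL had a ratio of 0.629 with an interval of 0.244 to 1.45, and TNFRSF19 and NOTUM had no reads to compare. NOTUM in Huh7, at 1.85 (0.862 to 4.29), and NKD1, at 0.609 (0.257 to 1.42) in Huh7 and 1.77 (1.04 to 3.01) in PLC, rest on 32 reads or fewer a library.

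In the same edgeR fit, the glucose term, which averages over both lines, called 0.0646% of the 23217 genes higher and 0.314% lower at 25 mM at an adjusted p under 0.05. Of the 10 genes, 0 were called, 0 had an unadjusted p under 0.05, and 0 were called by DESeq2 or limma-voom. DESeq2 gave no adjusted p for the glucose change of AXIN2, NKD1, SP5 and NOTUM and so could not call them. The smallest p was that of TBX3, 0.0761 (adjusted p = 0.678 by edgeR's quasi-likelihood test), with a log2 change of -0.72 (standard error 0.37) that averages the opposite ratios of the lines. LGR5 had a log2 change of 0.43 (standard error 0.25) and AXIN2 of 0.75 (standard error 0.44).

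The other genes of the pathway were taken from lists of ligands, receptors, inhibitors, the destruction complex, nuclear factors and liver zonation genes. Beta-catenin itself (CTNNB1) was at 56.8, 61.9, 61.6 and 55.3 FPKM, with overlapping levels of the lines and a log2 difference of 0.02 (standard error 0.19, adjusted p = 0.956 by edgeR's quasi-likelihood test). Of 9 genes for beta-catenin and its nuclear partners, 5 were called higher in Huh7 and 1 higher in PLC, beside 21.8% and 21.1% of all genes tested, with a median log2 difference of 0.67. Among the factors that bring beta-catenin to DNA, LEF1 was called higher in PLC and had 0 and 2 reads in Huh7 and 195 and 76 in PLC, while TCF7L1 and TCF7L2 were higher in Huh7 by 3.73 and 1.84 on the log2 scale (standard errors 0.46 and 0.24). The coactivator BCL9 was also higher in Huh7, by 1.74 (standard error 0.28). PYGO2, at 9.73 to 17.8 FPKM, was called higher in Huh7 by 0.67 (standard error 0.24), and BCL9L, at 8.81 to 14.9 FPKM, was not called.

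Of 19 Wnt ligands, 9 had enough reads to be tested, and 6 were called higher in PLC and 1 higher in Huh7, beside 21.1% and 21.8% of all genes tested, with a median log2 difference of -2.24. WNT7B had 2 and 1 reads in Huh7 and 338 and 107 in PLC, WNT11 had 0 and 6 against 61 and 73, and WNT2 had 0 and 0 against 31 and 29. WNT9B went the other way, with 34 and 72 reads in Huh7 and 0 and 4 in PLC. The highest level of any ligand was that of WNT3 in PLC at 25 mM, 4.67 FPKM, while WNT4 was at 0.845 to 1.81 FPKM and WNT2B at 0.325 to 2.12. PORCN, the enzyme that attaches the lipid to Wnt ligands, was called higher in PLC, at 5.17 and 7.16 FPKM against 2.72 and 2.13.

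Of 13 receptors tested, 5 were called higher in Huh7 and 2 higher in PLC (21.8% and 21.1% of all genes, median log2 difference 0.56). FZD7 was at 13.1 and 10.7 FPKM in Huh7 and 0.513 and 0.678 in PLC, and FZD8 the other way at 1.49 and 1.68 against 15.1 and 19.3. FZD4, FZD5, LRP5 and LRP6 were called higher in Huh7, by 1.84, 1.04, 1.18 and 0.68 on the log2 scale. LGR4, the R-spondin receptor related to LGR5, was at 58.7 to 68.2 FPKM in all 4 libraries, above LGR5 in each, and was not called. The R-spondins RSPO1 to RSPO4 had at most 6 reads in any library.

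All 7 secreted or surface inhibitors tested were called, 3 higher in Huh7 and 4 higher in PLC (21.8% and 21.1% of all genes, median -1.38). DKK1, which blocks the LRP coreceptors, was at 25 and 35.5 FPKM in Huh7 and had 5 and 2 reads in PLC. WIF1, which binds Wnt ligands, had 61 and 50 reads in Huh7 and 0 in PLC, whereas KREMEN2 had 0 in Huh7 and 22 and 42 in PLC and SFRP4 had 0 in Huh7 and 14 and 12 in PLC. In the destruction complex, 2 of 10 genes were called higher in Huh7 and 2 higher in PLC, close to the 21.8% and 21.1% of all genes, with a median of -0.19. GSK3B and TNKS were higher in Huh7 by 0.91 and 1.09 on the log2 scale, and APC2 and AXIN1 were higher in PLC, with log2 differences of -2.16 and -0.67. CSNK1A1 and TNKS2 were not called.

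Of 10 other commonly cited targets tested, 4 were called higher in Huh7 and 2 higher in PLC (21.8% and 21.1% of all genes, median 0.33). SP8, the relative of SP5, had 1424 and 1700 reads in Huh7 and 0 in PLC. With PLC counted at 3 reads, SP8 was 672-fold and 302-fold higher in Huh7. TNFRSF11B, which encodes osteoprotegerin, had 259 and 189 reads in Huh7 and 0 in PLC. CD44 was higher in Huh7 by 3.46 and SOX9 by 2.40 on the log2 scale, and NKD2, the relative of NKD1, had 4 and 4 reads in Huh7 and 99 and 29 in PLC. The widely expressed targets CCND1 and MYC, at 44.2 to 61.4 and 15.3 to 35.3 FPKM, were not called between the lines.

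GLUL belongs to the genes of hepatocytes around the central vein, and the lists for liver zones were read beside it. Of 5 other pericentral genes tested, beside 21.8% of all genes, 3 were called higher in Huh7, RHBG (59 and 84 reads in Huh7, 0 in PLC), LECT2 (18 and 17 against 0) and AVPR1A (102 and 183 against 6 and 0). CYP2E1 was called higher in PLC, with 3 and 8 reads in Huh7 and 112 and 26 in PLC, and OAT, at 31 to 54.1 FPKM, was not called. The median log2 difference was 5.40 as fitted and 2.34 with the genes at 0 reads in PLC set at their lower bound. Of 8 periportal genes, 4 were called higher in PLC and 2 higher in Huh7 (21.1% and 21.8% of all genes, median -2.54). CPS1, the first enzyme of the urea cycle, was at 1.22 and 1.45 FPKM in Huh7 and 392 and 358 in PLC, opposite to GLUL. ASS1, another urea cycle enzyme, was at 11.2 and 3.18 FPKM in Huh7 and 474 and 334 in PLC, and PCK1, an enzyme of gluconeogenesis, had 0 reads in Huh7 and 145 and 380 in PLC. HAL and ARG1, also periportal, were higher in Huh7, at 9.6 and 11.6 FPKM against 0.391 and 1.34 for HAL.

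With glucose, 0 genes of any list were called by edgeR's quasi-likelihood test at an adjusted p under 0.05. Both lines passed the study's thresholds upward for KREMEN1, a coreceptor of DKK1, with ratios of 3.02 in Huh7 and 2.29 in PLC, and for BCL9, with 1.52 and 1.75, where TMM scaling gave 1.48 in Huh7, under the threshold. MYC was lower in both, with 0.633 and 0.546. Of all genes over the FPKM filter, 14.1% were past the thresholds upward in Huh7 and 26.2% in PLC. Downward, 13.7% and 17.0% were past, and the share of all genes past in both lines was not counted. KREMEN1 went from 0.49 to 1.68 FPKM in Huh7 and from 1.54 to 3.66 in PLC, MYC from 35.3 to 22.3 and from 28.2 to 15.3. Their adjusted p-values for the glucose term were 0.0856 for KREMEN1, 0.497 for BCL9 and 0.144 for MYC, by the same edgeR test.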

How the data were processed

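RNA-seq libraries of Huh7 and PLC cells, 1 for each line and glucose concentration, were built by the authors with a directional kit after rRNA depletion. The submitters' processing notes name HISAT2, featureCounts and hg38, and the methods of the study name StringTie and FPKM values for this screen. Versions, the annotation release and the strand setting of the counting are not given in the sources used here. The deposited unit is the count, whole reads per gene without normalization. Of 59657 lines, 59652 were used, and 5 lines of a broken ANK2 entry were left out.

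FPKM was calculated from counts, the table's gene lengths and library totals. Ratio intervals are exact Clopper-Pearson and level intervals exact Poisson, both at 95% and for counting error only. A gene with 0 reads is compared at 3 reads. Counts were tested with edgeR 4.0.16 (R 4.3.3) by the quasi-likelihood test with terms for line and glucose, filterByExpr, TMM and Benjamini-Hochberg adjustment over all genes tested. The standard errors were calculated back from the fitted coefficient and the F statistic of this test and are not a separate measure of spread. Positions, exon numbers and MANE Select lengths are from GENCODE release 44 on GRCh38. Overlaps are from the exons given in the count table, and promoter sequences from RefSeq GRCh38.p14. The 10 genes and the lists were chosen with earlier results of these data known. Named are the 10 genes, list genes past the thresholds in both lines, up to 4 called genes and the 3 with the highest FPKM in each list, and genes that overlap or copy a member of the 10. Members of lists outside this rule (ARG1, TTR, the R-spondins, marker genes) were named after their values were seen. Alternatives were other pseudocounts, filters, thresholds, scalings and models, DESeq2 1.42.0, limma-voom (limma 3.58.1) and, chosen after seeing the data, MANE Select transcript lengths and TMM scaling of list genes past the thresholds in both lines. The code was tested on simulated data.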

Additional observations from a re-analysis of the deposited data

Results flagged for a closer look

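TBX3 moved in opposite directions in the 2 lines. With 0.1 added to both FPKM values, the ratio of 25 mM to 5 mM glucose was 1.18 in Huh7 and 0.348 in PLC, and neither counting interval held 1. Each line has 1 library per concentration, so whether the lines differ was not tested.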

How the results depend on the processing

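Called differences of the 10 genes kept their direction under the alternatives run, while the uncalled glucose changes of TNFRSF19 with DESeq2 and of SP5 without the cell line term changed sign, at an adjusted p of 1 each. The number past the glucose thresholds went from 2 to 0 in Huh7 cells with ratios over 2 or under 0.5 and to 1 with TMM scaling, which left out LGR5, and from 2 to 1 in PLC cells with FPKM over 0.5 in both libraries, which left out AXIN2. With a pseudocount of 1 in place of 0.1, LGR5 (1.34) and SP5 (0.732) in Huh7 and AXIN2 (1.44) in PLC were no longer past them. TBX3 in PLC (0.423) still was. With at least 10 counts in every library, 6340 genes in place of 9969 and 3 of the 10 in place of 7 were called between the lines, since GLUL, SP5, NOTUM and TNFRSF19 were then not tested. Genes called with glucose numbered 88, and 526 without a filter on low counts (242 higher, 284 lower), 27 with at least 10 counts in every library (0 higher), 197 with DESeq2 (71 higher) and 0 without the cell line term (52 at an unadjusted p under 0.05). The cause was not tested. Under each of these, 0 of the 10 genes were called with glucose, but not all of them could be. With at least 10 counts in every library only 6 were tested, and DESeq2 gave no adjusted p for AXIN2, NKD1, SP5 and NOTUM. Of the recomputed ratios, 24 moved by more than the relative width of their counting interval. NOTUM in DESeq2 and TBX3 without the glucose term lost their call. The glucose test compares 25 mM with 5 mM within lines, and with 1 library per condition none could be left out. Depth limits NKD1, NOTUM and, in PLC cells, GLUL, SP5 and TNFRSF19, which have at most 32 reads.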
